A study of Mus musculus with 19 samples.

Results

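The mitochondrial ribosomal protein genes are the protein-coding genes whose mouse symbol is Mrpl or Mrps followed by a digit, together with Dap3, without pseudogenes. They numbered 79 of the 52143 gene identifiers in the table, and the symbol, not a measured value, decided membership. All 79 passed the filter on low counts and were among the 19702 genes tested. The large subunit held 51 of them and the small subunit 27. Mrps30 and Mrps18a were counted with the large subunit, where their proteins sit in spite of the symbol. Mrps36, whose protein belongs to the 2-oxoglutarate dehydrogenase complex, was kept apart from both.

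Mitochondria translate a small set of respiratory chain and ATP synthase subunits from their own DNA, on ribosomes that descend from those of bacteria. The RNAs of these ribosomes are transcribed inside the organelle, while their proteins are encoded in the nucleus, made in the cytosol and imported. Some of the proteins have a counterpart in bacteria (46 members here), others are found in mitochondria only (32 members). The factors NRF1, GABP and YY1 are known to act at promoters of many nuclear genes for mitochondria, and MYC is a known activator of ribosome production in growing cells.

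The study sequenced poly(A) RNA from mouse induced pluripotent stem cells, fibroblasts returned to an embryonic state, in 3 groups. The corrected group, labelled db_corrected, held 2 lines (db_c_1 and db_c_2, 4 libraries) in which the db/db mutation of the leptin receptor had been repaired with CRISPR-Cas9. The db/db group held 4 lines (adb_db5, adb_db7, bdb_db5 and bdb_db7, 8 libraries) homozygous for the mutation. The control group held 4 wild-type lines (aB6_A5, aB6_B1, bB6_A5 and bB6_B1, 7 libraries). Fibroblasts of both db/db and control lines came from embryos of embryonic day 14.5, bred from OB-Rdb/+ parents, and were reprogrammed with the lentivirus STEMCCA carrying Oct4, Sox2, Klf4 and cMyc, so all 3 groups share that vector. The parent db/db line of the corrected lines is not in the labels, nor whether each line is a single clone, nor whether duplicate libraries are separate cultures. The study's title names protein synthesis pathways under leptin receptor signalling, and the comparisons made here address transcripts that differ with the mutation and with its correction. Values are CPM, the usual scaled share of a library's counts that a gene holds, after scaling by TMM, a method that sets the bulk of genes equal between lines, and lines are given in the order listed here.

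The 19 libraries held 27333914 to 41203703 estimated counts. Lines that share the second part of their name (db5, db7, A5, B1) were often alike. The db7 pair was less so (members summed to 3911 CPM in adb_db7 and 3531 CPM in bdb_db7). The number of independent db/db and control lines may thus be smaller than 4 each, and the p-values rest on the spread among the lines as deposited. The 2 corrected lines were close to each other as well (members summed to 3064 and 3016 CPM), so they may not be independent either. Genes on chromosome 3 were higher in the db7 lines (medians 0.35 and 0.37 above the control mean on the log2 scale), those on chromosome 15 higher in the A5 lines (0.20 and 0.21) and those on chromosome 6 higher in the B1 lines (0.13 and 0.12). Pou5f1 (Oct4), a defining transcript of pluripotency that the reprogramming vector also carried, averaged 1293 CPM in corrected, 1542 CPM in db/db and 1499 CPM in control lines. Nanog, another pluripotency marker, went the other way against db/db, with means of 547.2, 410.0 and 543.6 CPM in corrected, db/db and control lines. The 11 fibroblast markers summed to 1218 and 1121 CPM in corrected lines, against 1163 to 1352 CPM in db/db lines and 1437 to 1515 CPM in control lines. Most of that was Fn1 (means of 906.3, 1051 and 1134 CPM in corrected, db/db and control lines), with Col1a1 at 78.2, 69.3 and 142.6 CPM, while Dcn alone was under 1 CPM in every line. Of 12 markers of primitive endoderm, 10 rose and 0 fell in corrected against db/db lines, and their summed level was 920 and 889 CPM in corrected lines, against 511 to 641 CPM in db/db lines and 630 to 725 CPM in control lines. Of 11 fibroblast markers 4 rose and 0 fell, of 7 neuron markers 1 rose and 3 fell, and of 10 pluripotency markers 1 rose and 4 fell in this comparison, and their part in the results was not tested. Foxa2, a primitive endoderm marker, was under 1 CPM in every line. Lepr itself was counted at 0.72 and 0.61 CPM in the corrected lines, 0.19 to 0.37 CPM in db/db lines and 0.35 to 0.46 CPM in control lines, and a count per gene cannot show the repair.

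Most mitochondrial ribosomal protein transcripts were lower in the corrected lines than in both other groups, by about the same step in both subunits. Against db/db lines, 48 of the 79 fell in corrected lines and 0 rose (edgeR quasi-likelihood test, adjusted p under 0.05). Of all 19702 genes, 36.7% passed in that comparison, of which 18.0% of all genes fell and 18.7% rose. Under 1 CPM in every line were 5093 of all genes and 0 of the members, so shares over all genes are not of genes at a like level. The members' median log2 fold change was -0.35 (quartiles -0.46 and -0.24), 73 of the 79 values were below 0, and the median over all genes was 0.021. At an unadjusted p under 0.05, 61 members were lower and 0 higher, beside 22.7% and 23.9% of all genes. DESeq2's Wald test called 61 members lower and 0 higher, beside 21.6% and 19.0% of all genes.

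By line, the members' median stood at -0.36 and -0.40 in the corrected lines relative to the control mean, at 0.044, 0.001, 0.052 and -0.12 in the db/db lines, and between -0.015 and 0.010 in the control lines. The db/db line bdb_db7 was thus the lowest outside the corrected group, and the corrected lines lay below it without overlap. Of the 79 members, 76 in db_c_1 and 74 in db_c_2 were under the control mean, against 27 to 62 in db/db lines and 35 to 46 in control lines. The summed level of all members was 3064 and 3016 CPM in corrected lines, 3531 to 4041 CPM in db/db lines and 3854 to 3964 CPM in control lines. In 62 members both corrected lines lay below all db/db lines and in 1 above them, where 28.8% and 31.8% of all genes did so. In 58 members both corrected lines lay below all 8 other lines, where 20.4% of all tested genes did so. In 1 member, Mrpl33, both lay above all 8, where 21.3% of all genes did.

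**Figure D1:**
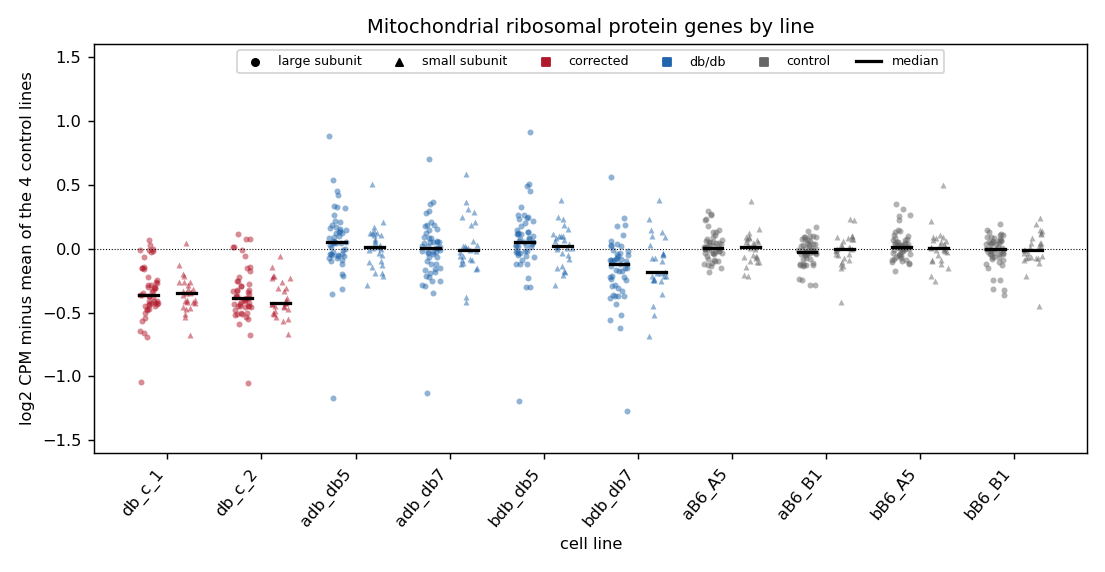
Each point is a mitochondrial ribosomal protein gene of the large subunit (circles, 51) or small subunit (triangles, 27) in a line, as log2 CPM minus the mean of the 4 control lines, and black bars are medians. Medians of both subunits lie between -0.43 and -0.35 in the 2 corrected lines and between -0.18 and 0.053 in the db/db and control lines.

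In the large subunit 30 of 51 members fell in corrected against db/db lines, with a median log2 fold change of -0.35. The small subunit had 17 of 27 falls and a median of -0.36, and Mrps36 fell as well. The difference of the subunit medians, large minus small, was -0.016 and 0.043 in the corrected lines, 0.014 to 0.062 in db/db lines and -0.024 to 0.014 in control lines. The ranges of the corrected and db/db lines overlapped. Members with a bacterial counterpart (27 of 46 fell, median -0.36) and those of mitochondria only (20 of 32 fell, median -0.33) also had like medians. In mean level over all lines, members ranged from 5.65 CPM per kilobase of transcript (Mrps25) to 111.9 CPM per kilobase (Mrpl42). Neither the mean level of a member (Spearman's rho -0.086 with its log2 fold change) nor its transcript length (0.124) went along with the size of the shift, as a description over 79 members that share their libraries.

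Against control lines, which share the corrected lines with the comparison above, 50 members fell and 0 rose in corrected lines. Of all genes, 33.2% passed, with 17.0% lower and 16.2% higher. The members' median log2 fold change was -0.39 beside -0.009 over all genes, with 29 of 51 falls in the large and 20 of 27 in the small subunit. Both corrected lines lay below all control lines in 70 members and above them in 1, where 30.5% and 31.3% of all genes did so.

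The number of calls changed with the lines used, while the median changed little. With lines of a shared name summed, 25 members fell against db/db (7.81% of all genes then fell) and 15 against control (6.25%), at medians of -0.36 and -0.41. Without db_c_1 or without db_c_2, 21 and 20 members fell against db/db, where 7.13% and 7.12% of all genes fell. Against control 15 and 15 members fell, where 5.46% and 5.25% of all genes did. Without bdb_db7, 60 members fell against db/db, where 19.3% of all genes did.

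The scaling sets where 0 lies. With library size alone, the median of all genes moved to 0.19 and that of the members to -0.18 in corrected against db/db lines, and 24 members fell and 1 rose (Mrps15), where 9.22% of all genes fell and 26.5% rose. Against control the medians became 0.12 over all genes and -0.26 over the members, with 28 falls of members, where 10.4% of all genes fell and 22.4% rose. Primitive endoderm markers were higher in the same corrected lines, as given above, and their part in the fall of the members was not tested.

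**Figure D2:**
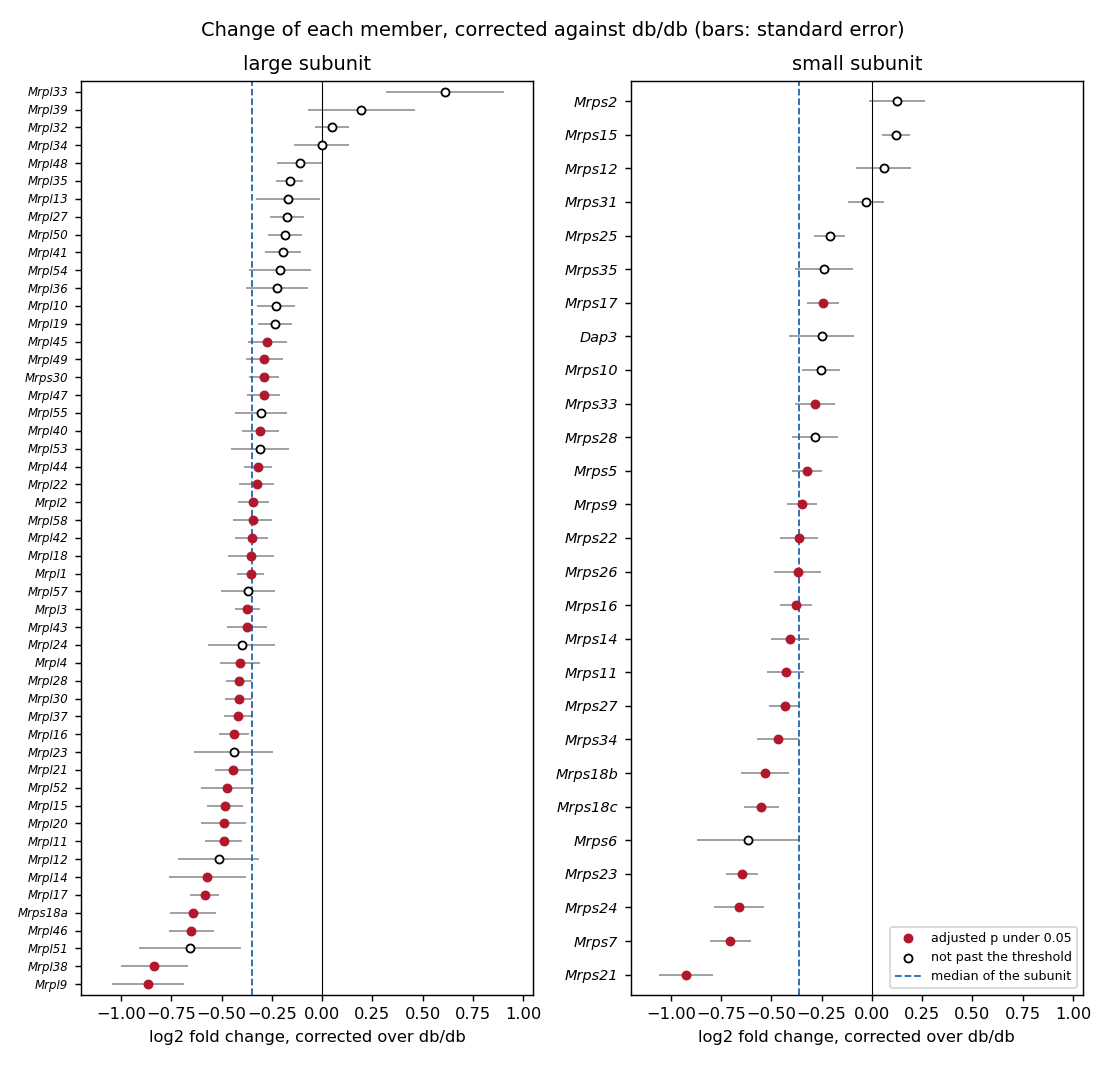
Log2 fold change of each member, corrected over db/db, with its standard error (bars), by subunit. Filled points passed the adjusted p threshold of 0.05, open points did not, and the dashed lines at -0.35 and -0.36 are the medians of the large and the small subunit.

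Promoters of 5 of the members that lay below or above the shared step are shown here as examples, picked without a fixed rule. Their motifs are no contrast between members below and above the step, and a part of the promoters in it was not tested. RefSeq promoter windows (GRCm38.p6, 250 bases before to 50 after a start) were matched for 69 members with 75 windows. The 100 bases before the RefSeq start are printed 5′ to 3′ on the gene's strand, with a motif in capitals, and are those of Mrpl17 (NRF1 motif), Mrps18a (ETS) and Mrps21 (NRF1, read on the opposite strand), which fell and lay below the family, and of Mrpl34 (ETS) and Mrps12 (CCAAT box), whose differences did not pass the test and which lay above the family. The RefSeq start is not always that of GENCODE M21, the annotation behind the gene spans given here: the last 12 bases printed for Mrpl17, 18 for Mrps18a and 5 for Mrps21 lie in the first exon of a GENCODE transcript, and 0 for Mrpl34 and Mrps12.
Mrpl17, chr7:105811088-105811187, - strand: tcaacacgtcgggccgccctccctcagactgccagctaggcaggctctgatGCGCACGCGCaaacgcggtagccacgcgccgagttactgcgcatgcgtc
Mrps18a, chr17:46110904-46111003, + strand: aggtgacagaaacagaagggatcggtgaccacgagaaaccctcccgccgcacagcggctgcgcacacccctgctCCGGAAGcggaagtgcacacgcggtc
Mrps21, chr3:95871515-95871614, - strand: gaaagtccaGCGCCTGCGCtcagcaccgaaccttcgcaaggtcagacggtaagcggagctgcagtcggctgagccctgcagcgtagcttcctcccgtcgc
Mrpl34, chr8:71464826-71464925, + strand: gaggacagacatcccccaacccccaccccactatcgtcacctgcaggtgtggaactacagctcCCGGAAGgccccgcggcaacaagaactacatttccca
Mrps12, chr7:28741822-28741921, - strand: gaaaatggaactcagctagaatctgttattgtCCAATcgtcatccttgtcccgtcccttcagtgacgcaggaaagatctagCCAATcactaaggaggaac

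Motifs were searched on both strands of the whole 300-base window. Outside the bases printed above, the windows of Mrpl17, Mrps21 and Mrps12 also held the ETS motif. Those of Mrps18a and Mrps12 also held the YY1 motif, and that of Mrps18a a CCAAT box. The NRF1 motif was found in 17.3% of the member windows and 4.60% of all 32851 windows, the ETS motif CCGGAAG, which GABP binds, in 34.7% and 8.86%, and the YY1 motif AANATGGC in 28.0% and 6.05%. The E-box CACGTG, which MYC with MAX binds, was in 9.33% of member windows and 7.15% of all windows, and the CCAAT box in 40.0% and 37.4%. Median log2 fold changes in corrected against db/db lines, in members with and without a motif, were -0.37 and -0.35 for NRF1, -0.37 and -0.34 for ETS, -0.35 and -0.36 for YY1. For the E-box they were -0.42 (5 members with it) and -0.35 (64 without), and for the CCAAT box -0.31 (27 with) and -0.40 (42 without). A match in a window describes its letters and is no evidence that a factor binds there.

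Among the large-subunit members, the 4 with the lowest p in corrected against db/db lines were Mrpl17, Mrpl28, Mrpl30 and Mrpl3. Mrpl17 (ENSMUSG00000030879, chr7:105803206-105811099, GRCm38), whose protein has a bacterial counterpart near the exit of the peptide tunnel, had 62.5 and 62.6 CPM in the corrected lines, against 97.4, 101, 89.9 and 87.5 CPM in the db/db lines and 88.5, 86.4, 92.7 and 87.4 CPM in the control lines. All 8 other lines were above both corrected lines, and the log2 fold change against db/db was -0.58 ± 0.07 (edgeR adjusted p = 0.00034) and against control -0.50 ± 0.07 (adjusted p = 0.00085). Mrpl28 had 55.6 and 56.05 CPM in the corrected lines, against 74.5, 79.2, 74.2 and 69.6 CPM in the db/db lines and 66.7, 70.4, 69.9 and 66.99 CPM in the control lines, with a log2 fold change of -0.41 ± 0.07 against db/db (adjusted p = 0.0013). Mrpl30 had 30.4 and 30.8 CPM in the corrected lines, against 42.2, 41.4, 41.5 and 38.1 CPM in the db/db lines and 40.8, 39.8, 40.7 and 41.97 CPM in the control lines. Mrpl30 fell in both comparisons (-0.41 ± 0.07 against db/db, -0.41 ± 0.07 against control, adjusted p = 0.0013 and 0.0016).

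Mrpl3, whose bacterial counterpart reaches towards the peptidyl transferase centre, had 44.4 and 44.9 CPM in the corrected lines, against 56.6, 58.7, 60.5 and 55.6 CPM in the db/db lines and 66.1, 65.01, 63.7 and 68.03 CPM in the control lines. Its 3 groups did not overlap: corrected lines were lowest, db/db lines between, control lines highest. Mrpl3 fell in corrected lines against control (-0.56 ± 0.06, adjusted p = 0.00027) and against db/db (-0.37 ± 0.06, adjusted p = 0.0015), and was the single member that fell in db/db against control (-0.18 ± 0.05, adjusted p = 0.031).

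In the small subunit the lowest p values belonged to Mrps23, Mrps7, Mrps21 and Mrps18c. Mrps23, a protein found in mitochondria only, had 12.4 and 11.9 CPM in the corrected lines, against 18.9, 19.7, 19.2 and 18.4 CPM in the db/db lines and 18.3, 16.8, 17.7 and 16.6 CPM in the control lines, with log2 fold changes of -0.65 ± 0.08 against db/db (adjusted p = 0.0004) and -0.51 ± 0.08 against control (adjusted p = 0.0016). Mrps7, whose bacterial counterpart binds ribosomal RNA in the head of the small subunit, had 34.4 and 34.6 CPM in the corrected lines, against 61.9, 55.9, 59.6 and 47.4 CPM in the db/db lines and 53.2, 55.5, 57.8 and 53.7 CPM in the control lines. No line of either other group came as low as the corrected lines (-0.70 ± 0.10, adjusted p = 0.00078 against db/db, and -0.67 ± 0.10, adjusted p = 0.0012 against control). Exons of Mrps7 overlap those of Gga3 and Mif4gd on the opposite strand, so its counts may include reads of these if the counting did not use strand, which is not given in the sources used here. Mrps18c had 16.5 and 16.4 CPM in the corrected lines, against 22.4, 26.2, 23.6 and 24.3 CPM in the db/db lines and 22.5, 20.5, 22.4 and 22.7 CPM in the control lines, with a log2 fold change of -0.55 ± 0.09 against db/db (adjusted p = 0.0012). Mrps9 and Mrps16, which with Mrps7 and Mrps23 had the lowest p against control, changed by -0.42 ± 0.07 (adjusted p = 0.0024) and -0.46 ± 0.08 (adjusted p = 0.0025) there.

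Other members with well-known roles passed the test in both, one or none of these comparisons. Mrpl12, which forms the stalk that recruits translation factors to the large subunit, had 71.2 and 72.00 CPM in the corrected lines, against 111, 98.5, 110.3 and 89.03 CPM in the db/db lines and 141, 94.8, 147 and 89.7 CPM in the control lines. Both corrected lines were lowest, but the A5 control lines lay far above the B1 lines, and the fall passed the threshold against control (-0.72 ± 0.20, adjusted p = 0.022) and not against db/db (-0.52 ± 0.20, adjusted p = 0.069). Mrpl58, a peptidyl-tRNA hydrolase built into the large subunit that frees stalled chains, had 22.3 and 20.98 CPM in the corrected lines, against 29.2, 27.6, 27.4 and 25.8 CPM in the db/db lines and 25.5, 30.8, 26.3 and 29.9 CPM in the control lines, and fell against both (adjusted p = 0.019 and 0.014). Mrps30, of the large subunit in spite of its symbol, averaged 54.8 CPM in corrected, 67.0 CPM in db/db and 74.2 CPM in control lines and fell against both (-0.29 ± 0.07, adjusted p = 0.012, and -0.44 ± 0.07, adjusted p = 0.002). Dap3, a GTP-binding protein of the small subunit first known from cell death, had 82.7 and 80.9 CPM in the corrected lines, against 77.99, 118, 82.3 and 112 CPM in the db/db lines and 89.02, 99.8, 89.2 and 103 CPM in the control lines. Its db7 lines were the highest of all and its db5 lines overlapped the corrected lines, and no comparison passed the threshold (adjusted p = 0.25 against db/db). Mrps36 had 13.8 and 13.4 CPM in the corrected lines, against 19.3, 18.9, 18.96 and 16.9 CPM in the db/db lines and 19.6, 17.6, 17.4 and 18.1 CPM in the control lines, and its fall against db/db (-0.45 ± 0.09, adjusted p = 0.0039) was near that of the ribosomal members.

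To see which members depart from the shared step, the fit was repeated with scaling factors taken from the members alone, so that a log2 fold change of 0 means moving with the family. In corrected against db/db lines 7 members lay above the step (Mrps15, Mrpl32, Mrps12, Mrps2, Mrps31, Mrpl34 and Mrpl33) and 8 below it (Mrps21, Mrps7, Mrps23, Mrpl17, Mrpl46, Mrps18a, Mrpl9 and Mrpl38). Under that scaling 41.5% of all genes passed, 37.1% above and 4.38% below, and the median of all genes stood at 0.36. Of the large subunit 3 lay above and 5 below, and of the small subunit 4 above and 3 below.

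Mrps21, a small-subunit protein with a bacterial counterpart, was lowest of all members relative to db/db. It had 16.98 and 15.8 CPM in the corrected lines, against 32.1, 33.8, 29.3 and 29.3 CPM in the db/db lines and 25.1, 20.3, 26.2 and 19.4 CPM in the control lines. Corrected lines were lowest, db/db lines highest and control lines between, with no overlap of the groups. The log2 fold change against db/db was -0.92 ± 0.14 (edgeR adjusted p = 0.00081), and it was -0.58 ± 0.14 relative to the family (adjusted p = 0.007). The gene lies on chromosome 3, and Mrps21 was alike in the db5 lines and the db7 lines.

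Mrpl38, a large-subunit protein of mitochondria only, had 28.6 and 28.4 CPM in the corrected lines, against 51.5, 58.2, 47.9 and 45.6 CPM in the db/db lines and 69.2, 49.7, 70.5 and 49.9 CPM in the control lines. The A5 control lines were far above the others and the corrected lines far below. Relative to the family its log2 fold change was -0.49 ± 0.16 against db/db (adjusted p = 0.035) and -0.72 ± 0.17 against control (adjusted p = 0.0067). Mrpl9 had 54.4 and 55.2 CPM in the corrected lines, against 106, 96.96, 108 and 89.5 CPM in the db/db lines and 94.6, 66.9, 97.8 and 63.1 CPM in the control lines, and the B1 control lines were closest to the corrected ones. Mrpl9 is the member with the next lowest log2 fold change against db/db (-0.87 ± 0.18, adjusted p = 0.0049) and, like Mrps21, lies on chromosome 3.

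Mrps18a had 26.1 and 23.6 CPM in the corrected lines, against 42.7, 36.8, 42.3 and 33.6 CPM in the db/db lines and 32.6, 37.1, 34.5 and 38.6 CPM in the control lines, without overlap of corrected lines with the others, with a log2 fold change of -0.64 ± 0.12 against db/db (adjusted p = 0.0024). Mrpl46 had 17.6 and 19.03 CPM in corrected, 30.99, 27.1, 32.7 and 24.4 CPM in db/db and 28.6, 27.1, 27.6 and 27.1 CPM in control lines. Its exons overlap those of the member Mrps11 on the opposite strand, which fell too (-0.43 ± 0.09, adjusted p = 0.0055), so the values of this pair may not be independent. Relative to the family, Mrps7 changed by -0.35 ± 0.08 against db/db and -0.32 ± 0.08 against control (adjusted p = 0.0048 and 0.0081).

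Members above the step were near their db/db or control level. Mrps15, a small-subunit protein with a bacterial counterpart, had 42.8 and 39.9 CPM in the corrected lines, against 36.4, 40.7, 36.5 and 38.7 CPM in the db/db lines and 41.7, 42.4, 40.04 and 42.03 CPM in the control lines. All 3 groups overlapped, and relative to the family Mrps15 was higher by 0.46 ± 0.09 against db/db (adjusted p = 0.0034) and by 0.34 ± 0.09 against control (adjusted p = 0.014). Mrpl32, which the mitochondrial m-AAA protease trims before it enters the large subunit, had 18.3 and 19.3 CPM in the corrected lines, against 17.9, 18.2, 19.1 and 17.6 CPM in the db/db lines and 18.6, 16.8, 19.3 and 18.8 CPM in the control lines. Its 10 values were close together with no order of the groups, and it lay 0.39 ± 0.09 and 0.39 ± 0.09 above the family in the comparisons with db/db and with control (adjusted p = 0.0066 and 0.0072).

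Mrps12, a protein of the decoding centre, had 29.5 and 29.6 CPM in the corrected lines, against 32.1, 27.3, 31.96 and 22.04 CPM in the db/db lines and 32.97, 37.4, 35.2 and 36.5 CPM in the control lines. The db/db lines spread widely, with bdb_db7 lowest, and the control lines lay above all others. Mrps12 was 0.41 ± 0.11 above the family against db/db (adjusted p = 0.012); against control the value was 0.087 ± 0.11 and did not pass (adjusted p = 0.55). Mrps2 had 116 and 116 CPM in the corrected lines, against 118, 101, 111 and 94.4 CPM in the db/db lines and 117, 158, 117 and 155 CPM in the control lines, with the B1 control lines apart from the rest. Mrps31 had 43.9 and 43.5 CPM in the corrected lines, against 44.8, 43.2, 48.1 and 42.2 CPM in the db/db lines and 45.9, 51.3, 43.3 and 52.2 CPM in the control lines, and Mrpl34 had 26.4 and 22.7 CPM in the corrected lines, against 28.5, 24.3, 26.5 and 19.2 CPM in the db/db lines and 27.3, 27.99, 27.6 and 27.6 CPM in the control lines. Both overlapped between corrected and db/db lines and lay above the family by 0.32 ± 0.09 (adjusted p = 0.018) and 0.35 ± 0.11 (adjusted p = 0.024).

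Against control, Mrpl49, Mrpl41 and Mrpl27 lay above the step beside Mrpl32 and Mrps15, and Mrpl38, Mrps7 and Mrpl3 below it. Under that scaling 40.8% of all genes passed, 36.3% above and 4.50% below. Mrpl49 had 56.4 and 55.8 CPM in the corrected lines, against 69.1, 70.5, 69.3 and 65.04 CPM in the db/db lines and 62.3, 50.1, 58.4 and 50.9 CPM in the control lines, with corrected lines inside the control range. Mrpl41 had 13.4 and 13.8 CPM in the corrected lines, against 15.02, 16.6, 15.9 and 14.7 CPM in the db/db lines and 14.4, 12.9, 13.5 and 14.01 CPM in the control lines, with corrected lines inside the control range and db/db lines above both. Mrpl27 had 24.4 and 24.4 CPM in the corrected lines, against 28.8, 28.6, 28.6 and 24.3 CPM in the db/db lines and 27.3, 26.7, 27.7 and 26.4 CPM in the control lines, and its difference from control did not pass (adjusted p = 0.21) while it lay 0.21 ± 0.07 above the family (adjusted p = 0.036).

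These departures rest on few lines. With lines of a shared name summed, 2 members still departed against db/db, Mrps15 above and Mrps21 below, and 1 against control, Mrpl38 below. The share of all genes that passed in that fit is not given here, so these counts describe the members alone. With shared names summed, Mrps15 lay 0.46 above the family against db/db (edgeR adjusted p = 0.04). Leaving out a corrected line left 1 line in that group, so only effect sizes are given for those departures. Mrps15 lay 0.42 above the family against db/db without db_c_1, and 0.49 above it without db_c_2.

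**Figure D3:**
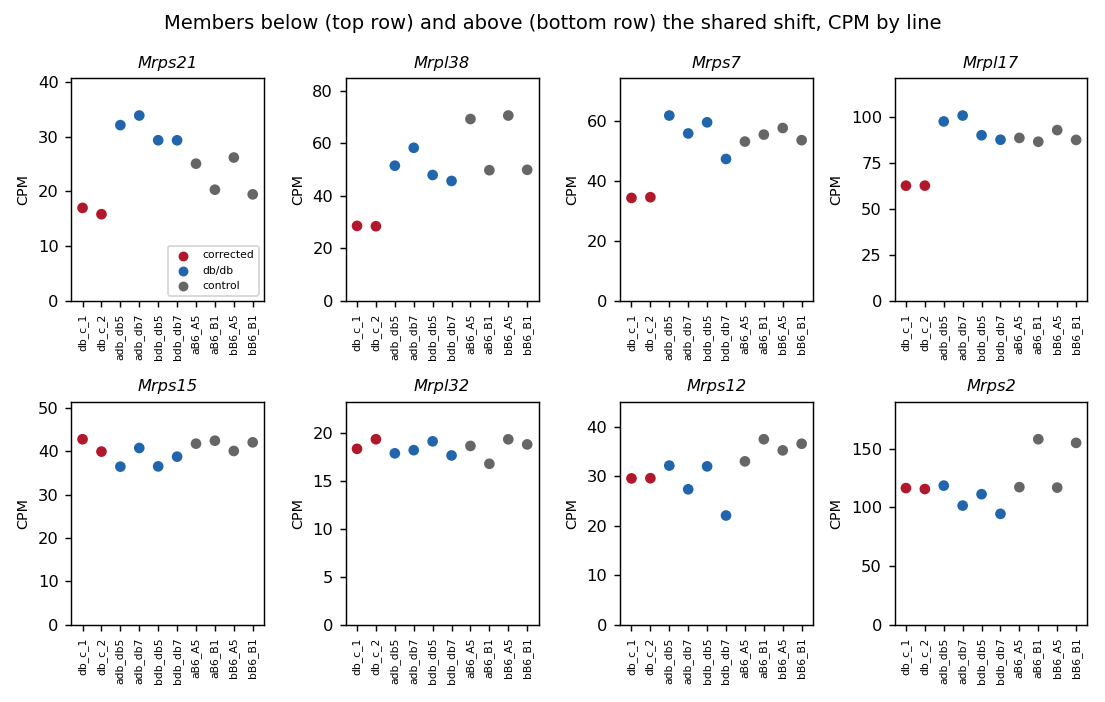
CPM by line of 4 members that lay below the shared step (top row) and 4 that lay above it (bottom row) in corrected against db/db lines, with axes starting at 0. In the top row both corrected lines lie below every other line, while in the bottom row they lie within or next to the db/db values.

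Few members changed between db/db and control lines. In db/db against control lines, 3 of 79 rose (Mrpl14, Mrps21 and Mrpl49) and 1 fell (Mrpl3), where 16.9% of all genes passed, 7.41% higher and 9.50% lower. All db/db lines lay above all control lines in 7 members and below them in 4, where 11.1% and 12.2% of all genes did so. The members' median log2 fold change was -0.001, equal to that of all genes. At an unadjusted p under 0.05 there were 8 higher and 7 lower members, beside 15.7% and 17.7% of all genes. Treating each library as a sample, with the duplicate number as a block, called 20 members (10 higher, 10 lower), where 38.1% of all genes were called. With lines of a shared name summed, edgeR called 0 members (3 higher and 0 lower at an unadjusted p under 0.05) and 34 genes in all, 0.161% of those tested. With the lines as deposited, 8 of 11 fibroblast markers fell and 0 rose (median -0.81), and 5 of 12 primitive endoderm markers fell and 1 rose (median -0.31), and their part in the members' values was not tested.

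Mrpl14, a large-subunit protein at the subunit interface, had 14.3 and 15.6 CPM in the corrected lines, against 26.6, 18.6, 27.2 and 16.4 CPM in the db/db lines and 14.8, 14.1, 14.9 and 14.01 CPM in the control lines. The db5 lines were well above the db7 lines, and all 4 were above the control and corrected lines, so that a rise against control (0.62 ± 0.15, adjusted p = 0.024) stood beside a fall in corrected against db/db lines (-0.57 ± 0.19, adjusted p = 0.042). Exons of Mrpl14 overlap those of Tmem63b on the opposite strand. Mrps21 rose (0.45 ± 0.11, adjusted p = 0.018) and so did Mrpl49 (0.31 ± 0.07, adjusted p = 0.022), both with every db/db line above every control line. Mrpl14 no longer passed without aB6_B1, bB6_B1, adb_db5 or bdb_db5, Mrpl49 without aB6_B1, bB6_B1 or adb_db7, and Mrps21 without aB6_B1. Mrpl3 no longer passed when any line but bB6_A5 and bdb_db5 was left out. Mrpl39 and Mrps12 lay below the family in db/db against control (-0.68 ± 0.19, adjusted p = 0.043, and -0.33 ± 0.09, adjusted p = 0.037), beside Mrpl14, Mrps21 and Mrpl49 above it, under a scaling in which 14.5% of all genes passed, 5.63% above and 8.86% below.

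Some members differed between lines of the same group, along the shared names. By more than 0.5 on the log2 scale, 3 members were higher and 3 lower in db7 than in db5 lines, and 0 higher and 4 lower in B1 than in A5 lines, where 28.9% and 27.6% of all genes differed by that much in either direction. Mrpl33, a small large-subunit protein with a bacterial counterpart, had 33.5 and 33.6 CPM in the corrected lines, against 14.2, 29.8, 13.9 and 30.03 CPM in the db/db lines and 31.5, 31.3, 31.8 and 33.2 CPM in the control lines. The db5 lines held less than any other line, and db7, corrected and control lines were alike. Its log2 fold change in corrected against db/db lines (0.61 ± 0.29, adjusted p = 0.13) was 1.26 ± 0.06 against the db5 lines alone (adjusted p = 2.7e-05) and 0.17 ± 0.06 against the db7 lines alone (adjusted p = 0.065).

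Mrpl39 showed the reverse, with 67.6 and 63.3 CPM in the corrected lines, against 72.8, 41.4, 77.1 and 37.5 CPM in the db/db lines and 99.9, 83.3, 97.2 and 82.95 CPM in the control lines. Here the db7 lines were lowest, corrected lines lay between db7 and db5 lines, and control lines were highest. The log2 fold change of Mrpl39 in corrected lines was 0.74 against db7 lines alone and -0.19 against db5 lines alone, again as effect sizes only. Mrpl51 had 64.05 and 61.6 CPM in the corrected lines, against 127, 76.8, 124 and 68.1 CPM in the db/db lines and 77.2, 98.1, 77.4 and 99.96 CPM in the control lines, high in the db5 lines and, among controls, higher in B1.

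Mrpl24, on chromosome 3, had 73.3 and 73.5 CPM in the corrected lines, against 76.7, 120.5, 80.9 and 109.7 CPM in the db/db lines and 76.6, 74.1, 75.7 and 70.9 CPM in the control lines, and both db7 lines lay above all others. Dap3, also on chromosome 3, showed the same pattern in its values given above. Mrpl13, on chromosome 15, had 38.9 and 37.9 CPM in the corrected lines, against 42.3, 45.4, 43.97 and 41.3 CPM in the db/db lines and 65.1, 44.4, 64.9 and 45.5 CPM in the control lines, and Mrpl12, on chromosome 11, was likewise high in the A5 control lines. Mrps6 had 17.01 and 16.9 CPM in the corrected lines, against 24.6, 28.6, 24.97 and 25.5 CPM in the db/db lines and 30.3, 17.4, 33.03 and 17.1 CPM in the control lines, with the B1 lines at the level of the corrected ones. Leaving out the 14 members on chromosomes 3, 6 and 15 left 44 of 65 members lower in corrected against db/db lines, at a median of -0.37.

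**Figure D4:**
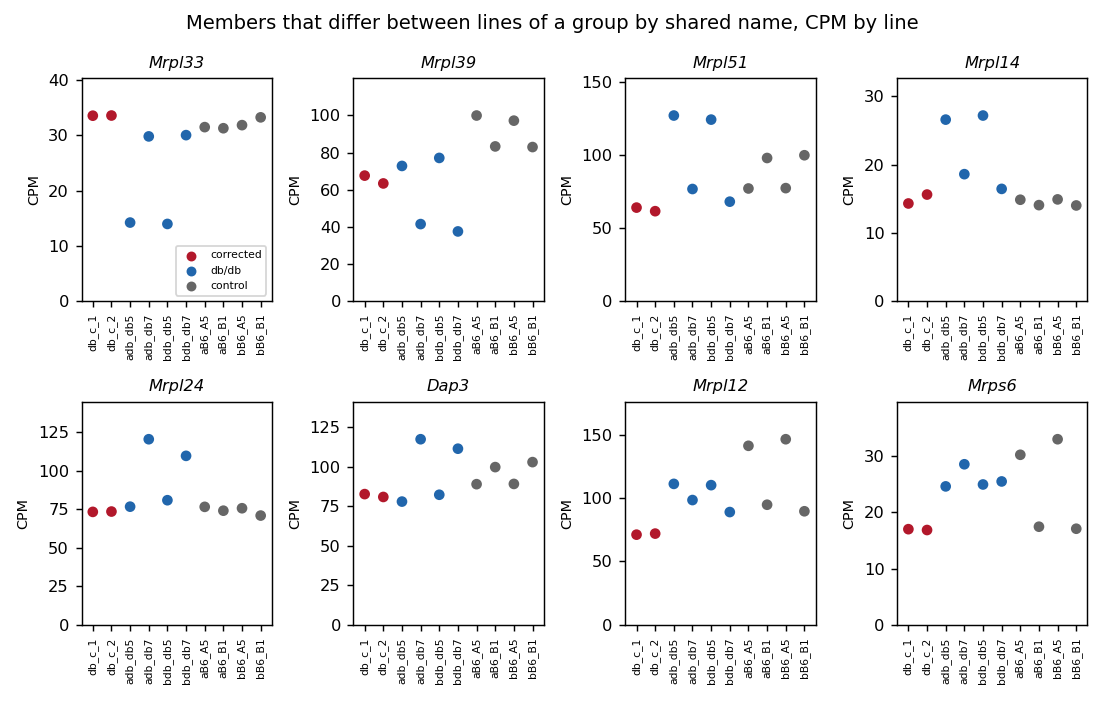
CPM by line of 8 members that differ between lines of the same group by their shared name (db5 or db7, A5 or B1), with axes starting at 0. Mrpl33 is near 14 CPM in both db5 lines and at 29.8 to 33.6 CPM in the other lines.

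The members' step was set beside other genes of mitochondrial gene expression, all in corrected against db/db lines. In that comparison 18.0% of all genes fell and 18.7% rose. Of 4 mitochondrial ribosomal proteins with other names, Chchd1 (-0.53 ± 0.10, adjusted p = 0.0025) and Aurkaip1 (-0.39 ± 0.12, adjusted p = 0.026) fell. Of 29 genes listed for assembly of the ribosome and modification of its RNA, 11 fell and 0 rose, with a median of -0.22. Ddx1, counted among the 11, may not belong with such genes. Trmt61b, a methyltransferase of mitochondrial RNAs, had 5.08 and 4.42 CPM in the corrected lines, against 8.99, 8.85, 9.17 and 8.57 CPM in the db/db lines and 6.88, 7.25, 7.05 and 7.20 CPM in the control lines and fell (-0.91 ± 0.10, adjusted p = 0.00028). Mettl17 (-0.46 ± 0.07) and Rpusd4 (-0.53 ± 0.09), a pseudouridine synthase, fell too (adjusted p = 0.0012 and 0.0017).

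Of 15 mitochondrial translation factors and RNA stabilisers 5 fell and 1 rose (median -0.21). Lrpprc, which keeps mitochondrial mRNAs stable, had 117 and 119.7 CPM in the corrected lines, against 184, 176, 191 and 190.4 CPM in the db/db lines and 171, 175, 171 and 181 CPM in the control lines. Corrected lines were lowest without overlap (-0.65 ± 0.06, adjusted p = 8.2e-05), and its partner Slirp fell as well (-0.47 ± 0.08, adjusted p = 0.0017). Mtrf1l, a release factor, rose (0.55 ± 0.15, adjusted p = 0.018). Of 22 mitochondrial aminoacyl-tRNA synthetases and amidotransferase subunits 10 fell and 1 rose (median -0.18). Gars and Kars, counted among the 10, may not serve mitochondria alone. The lowest p belonged to Rars2 (-0.64 ± 0.07, adjusted p = 0.0002) and Yars2 (-0.58 ± 0.07, adjusted p = 0.00042).

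Of 15 genes for the expression and copying of mitochondrial DNA 8 fell and 1 rose, with a median of -0.24. Elac2, which trims the ends of mitochondrial tRNAs, had 86.8 and 85.3 CPM in the corrected lines, against 133, 129, 122 and 125 CPM in the db/db lines and 129.7, 136, 129.9 and 133 CPM in the control lines, and Tfam, which packages mitochondrial DNA, had 69.2 and 66.8 CPM in the corrected lines, against 90.9, 96.6, 95.3 and 97.2 CPM in the db/db lines and 89.9, 85.6, 89.2 and 85.9 CPM in the control lines. Both fell against db/db (-0.56 ± 0.06, adjusted p = 0.00013, and -0.48 ± 0.06, adjusted p = 0.00031), while Polg, the DNA polymerase, rose (0.35 ± 0.06, adjusted p = 0.0014). Hsd17b10, a subunit of mitochondrial RNase P, had 41.6 and 40.6 CPM in the corrected lines, against 83.2, 89.1, 79.9 and 80.5 CPM in the db/db lines and 35.9, 38.7, 35.7 and 39.1 CPM in the control lines. Its db/db lines were all far above the other lines, with corrected lines just above the control range, and it fell in corrected against db/db (-1.02 ± 0.07, adjusted p = 3.6e-05) and rose in db/db against control (1.16 ± 0.06, adjusted p = 6.6e-06).

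Of the 13 mRNAs encoded in mitochondrial DNA 3 fell in corrected against db/db lines and 0 rose. The share that fell, 23.1%, was near the 18.0% of all genes that fell. The 3 were mt-Nd1 (-0.59 ± 0.12, edgeR adjusted p = 0.0044), mt-Nd2 (-0.56 ± 0.11, adjusted p = 0.0039) and mt-Co1 (-0.45 ± 0.08, adjusted p = 0.0024). The median over the 13 mRNAs varied between lines of a group, from -0.06 to 0.37 in db/db lines and from -0.19 to 0.24 in control lines. Of both rRNAs, mt-Rnr2 fell (-1.19 ± 0.30, edgeR adjusted p = 0.012). It had 175 and 186 CPM in the corrected lines, against 322, 631, 325 and 368 CPM in the db/db lines, so adb_db7 raised the size of that fall. Mitochondrial RNAs carry short poly(A) tails or none, and these libraries select for poly(A).

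Among 9 tested regulators of mitochondrial biogenesis 6 fell and 0 rose. Myc, which was also carried by the reprogramming vector, had 396 and 381 CPM in the corrected lines, against 830.1, 680.1, 774 and 612 CPM in the db/db lines and 647, 579, 619 and 552 CPM in the control lines, and its partner Max had 60.6 and 62.2 CPM in the corrected lines, against 112, 97.3, 109 and 90.5 CPM in the db/db lines and 104, 97.1, 98.7 and 95.7 CPM in the control lines. Both were lowest in the corrected lines without overlap (-0.90 ± 0.12, adjusted p = 0.00051, and -0.73 ± 0.09, adjusted p = 0.00034). Pprc1, a coactivator of NRF1, fell (-0.55 ± 0.05, adjusted p = 0.00013), as did Yy1 (-0.59 ± 0.06, adjusted p = 0.0002). Nrf1 and Gabpb1, whose proteins bind or help bind the NRF1 and ETS motifs, fell too (-0.29 ± 0.08, adjusted p = 0.021, and -0.46 ± 0.09, adjusted p = 0.0037). Gabpa, the other GABP subunit, was higher without passing (0.55 ± 0.26, edgeR adjusted p = 0.13). It had 155.0 and 154.9 CPM in the corrected lines, against 134.9, 68.4, 140.7 and 80.6 CPM in the db/db lines. Ppargc1b (0.26 ± 0.20) and Esrra (-0.23 ± 0.28) did not pass either. The part of these regulators in the members' step was not tested.

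Other large families of ribosomal and mitochondrial proteins had medians of like size. The 82 cytosolic ribosomal proteins tested had 55 falls and 0 rises in corrected against db/db lines. The 82 nuclear-encoded respiratory chain and ATP synthase genes, taken by symbol alone, had 46 falls and 1 rise (Atp5s). Median log2 fold changes were -0.29 and -0.28, beside -0.35 for the members. In the corrected lines the medians relative to the control mean were -0.34 and -0.35 for cytosolic ribosomal proteins and -0.31 and -0.33 for respiratory chain subunits. The line bdb_db7, lowest among db/db lines for the members, was lowest for these lists as well, at -0.22 and -0.17.

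**Figure D5:**
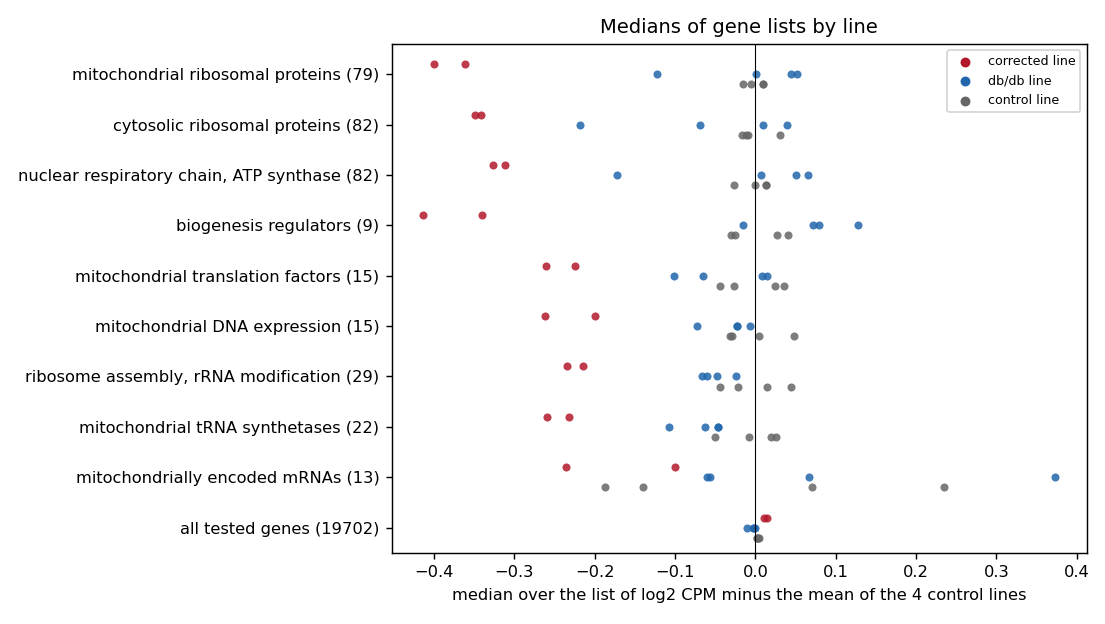
Median over each gene list (number of tested genes in parentheses) of log2 CPM minus the mean of the 4 control lines, with a point for each corrected, db/db and control line. The corrected lines lie at -0.40 to -0.34 for the mitochondrial and cytosolic ribosomal proteins, below every db/db and control line, and near 0 over all tested genes.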

How the data were processed

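Poly(A) RNA of 19 libraries (10 lines) was sequenced from stranded TruSeq libraries, per the labels' protocols. The authors deposited estimated counts per gene; the submitters' processing notes name kallisto and GRCm38, without version, index or strand setting in the sources used here. Of 52143 gene identifiers, 51336 matched GENCODE M21 (99.38% of counts), and 79.7% of values were whole within 1e-06. Members were taken from the GENCODE symbols. Estimated counts divide reads between similar transcripts; 5 pseudogenes named after members carried 0.678% of the members' counts. Exons of 29 members overlap a gene on the opposite strand and of 6 a gene on the same strand.

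Groups and lines come from the sample characteristics. Counts were rounded per library and summed per line, because the labels do not make duplicates separate cultures. All 3 groups entered a single edgeR 4.0.16 fit (quasi-likelihood F-test, R 4.3.3) with filterByExpr (19702 genes kept) and TMM, Benjamini-Hochberg adjustment over all genes tested and a threshold of 0.05. Fold changes are log2, first-named group over second, ± standard error. A second fit took its scaling from the median of ratios over the members. Line medians used log2 CPM with a prior count of 2. The scripts were tested on simulated data. Totals were 27333914 to 41203703 (median 34455891), and the spread between lines sets the precision.

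The members, lists and tests were chosen with earlier results of these data known. Members were named by a rule: the 4 lowest p per subunit, the 4 highest and 4 lowest fold changes, those changed against the direction of most, those departing from the family (up to 8), and 7 fixed ones (Dap3, Mrps12, Mrpl12, Mrpl58, Mrps30, Mrps18a and Mrps36); of other lists up to 4 of lowest p. Mrpl34, Mrps11, Mrpl51, Mrps6, Mrps25, Mrpl42, Mtrf1l, Nrf1, Gabpb1, Gabpa, Ppargc1b, Esrra, Atp5s and Lars2 were named after their values were seen. So were Ddx1, Gars and Kars. The duplicate numbers pair libraries across control and db/db lines: deviations of same-numbered libraries correlated at 0.234 to 0.561 in 12 pairs over 9064 genes, and the numbers enter only the fit on single libraries. The corrected libraries carry letters, not numbers. Alternatives were other scalings, DESeq2 1.42.0, no filter on low counts, each library as a sample, lines of a shared name summed, only the groups compared, the first letter of line names as covariate, and leaving out each line or chromosomes 3, 6 and 15; added after seeing the data were fits without the second library of adb_db7 and the departures against db5 or db7 lines only. Mtrfr and Prorp, of the lists, were not matched. Python 3.11.15, pandas 2.3.3 and matplotlib 3.10.9 made tables and figures.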

Additional observations from a re-analysis of the deposited data

Results flagged for a closer look

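In 4 of 70 groups of 4 lines checked, the lowest or highest line lay farther off than Dixon's 95% criterion for 4 lines allows. The groups were 32 named members and the family's medians, in db/db and control lines. Chance gives about 1 in 20 for independent lines. Lines of a shared name were often alike and the checks share lines and members, so that rate may not hold here. The small-subunit median of the db/db lines had a ratio of gap to range of 0.8357, with bdb_db7 at -0.18 below lines at 0.011, -0.011 and 0.023 on the log2 scale. Mrpl27 in db/db lines had 0.94, with 28.8, 28.6, 28.6 and 24.3 CPM, and Mrps36 in db/db lines 0.8291, with 19.3, 18.9, 18.96 and 16.9 CPM, both again lowest in bdb_db7. Mrps18c in control lines had 0.8667, with 22.5, 20.5, 22.4 and 22.7 CPM, lowest in aB6_B1. Both libraries of bdb_db7 were low for the whole family (medians -0.12 and -0.18).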

How the results depend on the processing

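The count of members called in corrected against db/db lines (48, all lower) became 25 with library size alone (24 lower, 1 higher). It became 25 with shared names summed and up to 60 with a db/db line left out. Against control (50) it became 28 and 15 in the first 2 of these settings, and up to 51 with a control line left out. In db/db against control (4) it became 11 with DESeq2's Wald test, 23 with each library as a sample, 20 with the duplicate number as replicate block, 0 with shared names summed, 0 with the first letter as covariate (5 higher and 7 lower at an unadjusted p under 0.05) and 1 to 6 with a line left out. Departing members (15, 8 and 5 in the order above) became 2, 1 and 0 with shared names summed, and 25, 21 and 23 with each library as a sample. With a db/db or control line left out they became up to 16, up to 8 and 1 to 7. Counts from fits with a single corrected line are not given. Apart from those fits, no other setting moved these counts by over 1.5 times. The share of all genes called moved with the setting as well. In db/db against control it was 16.9% in the main fit and 38.1% with the duplicate number as replicate block. That share is not given here for every setting, so a changed count is not a result about the family alone.

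Log2 fold changes near 0 changed sign in places. In corrected against db/db these were Mrpl39 (-0.19), Mrps12 (-0.11) and Dap3 (0.033) against db5 lines only, Mrps31 with library size alone (0.14) or against db7 lines only (0.039), and, with a line left out, Mrps12 (-0.044 to 0.131) and Mrps31 (-0.054 to 0.014). In corrected against control they were Mrps15 and Mrpl41 with library size alone (0.12 and 0.12) or each library as a sample (0.009 and 0.008), and, with a line left out, Mrpl14 (-0.007 to 0.122), Mrpl32 (-0.003 to 0.084), Mrpl49 (-0.025 to 0.081), Mrps15 (-0.048 to 0.049) and Mrpl41 (-0.034 to 0.019). In db/db against control they were Dap3 (-0.013) and Mrps36 (-0.016) with library size alone, and, with a line left out, Dap3 (-0.071 to 0.121) and Mrpl58 (-0.079 to 0.012). The cause was not tested. Without the second library of adb_db7, 49 members fell against db/db. Only 2 corrected lines, close to each other in values, and the likeness of other lines that share a name limit what can be called.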

Other observations

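Lars2, the mitochondrial leucyl-tRNA synthetase, had 2075 and 2014 CPM in the corrected lines, against 2345, 10430.0, 2195 and 2173 CPM in the db/db lines and 2176, 2048, 2362 and 2238 CPM in the control lines. The line adb_db7 stood apart, and its second library gave 4.81% of counts to Gm42418, against at most 0.514% in the other db/db libraries. In the same line mt-Rnr2 had 631 CPM, against 322 to 368 CPM in the other db/db lines. No comparison of Lars2 passed the threshold (adjusted p = 0.2 for corrected against db/db lines).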
